A study of Mus musculus with 9 samples.

Results

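Nitric oxide synthase and caveola genes were followed in meningeal lymphatic endothelial cells (MLECs), the cells that line the lymphatic vessels of the dura. The 7 genes are Nos3, which encodes endothelial nitric oxide synthase (eNOS), Nostrin, whose product binds eNOS, and 5 genes of the caveola coat, Cav1, Cav2, Ptrf, Sdpr and Ehd2. They were chosen by symbol from the 24321 genes of the deposited table, and all 7 are in it. Nos3 and Nostrin are also among the genes that the study selected as upregulated on these same libraries, so that their direction here is not independent evidence.

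Caveolae are flask-shaped pits of the plasma membrane that are abundant in endothelium. Caveolin-1 and caveolin-2 sit in the membrane, cavin-1 (Ptrf) and cavin-2 (Sdpr) coat them from the cytosol, and the ATPase EHD2 holds their neck at the surface. eNOS makes nitric oxide from L-arginine, resides in caveolae, and is held inactive by caveolin-1. Nostrin recruits proteins that move eNOS from the membrane to vesicles. In collecting lymphatic vessels eNOS activity sets the tone of the vessel wall.

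There were 3 groups of male mice, labelled as 10 weeks old and of the C57BL/6 strain in the study's methods, with 3 RNA-seq libraries in each group. Control mice received PBS, GL261 mice received GL261 glioma cells and B16 mice received B16 melanoma cells, both of them lines from that strain. The labels give 100000 tumor cells injected into the cisterna magna and collection after about 3 weeks (GL261) or 2 weeks (B16), while the study's methods for MLECs describe a subdural injection. Each library came from 10 sorted cells of meninges pooled from 6 mice, so that replicates are different pools of animals. The stains named for the sort are CD31, CD45 and LYVE-1, whereas the study's account of the gate names podoplanin in place of LYVE-1, so that the marker that set the lymphatic gate is uncertain. Tumor age and tumor type differ together between GL261 and B16.

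All values are FPKM (fragments per kilobase of transcript, scaled to the total fragments of the library), which can be compared between genes because they are per length. Differences are given between means of log2(FPKM + 1), a scale that understates changes of low genes. The test was limma, applied to the 9955 genes with at least 1 FPKM in at least 3 libraries, and a gene was called at a Benjamini-Hochberg adjusted p under 0.05. All 7 members passed that filter, but Nos3 and Nostrin did so only through tumor-associated libraries, as fewer than 3 controls reached 1 FPKM. A gene found only in control must reach it in all 3 controls. The filter thus admits genes that are high in tumor-associated MLECs more readily, which bears on their tests and on the shares called higher and lower. Single genes were also compared by exact two-sided permutation tests, which cannot go below p = 0.0119 for 3 control against 6 tumor-associated libraries or below p = 0.1 for 3 against 3.

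Depth was lowest in the control libraries. The smallest FPKM of genes with a single annotated transcript were mostly near whole multiples of what 1 fragment is worth. Of such low values 69.2% to 81.7% lay within 0.05 of a whole number. The worth of 1 fragment was fitted to where these same values were densest, so that the share is in part set by the fit. From these steps, and in units of 1000000 fragments, depth was about 1.21 to 1.93 in control, 2.06 to 4.64 in B16 and 4.56 to 8.26 in GL261 libraries. FPKM summed to 652636 to 693117 in control and 701951 to 888312 in tumor-associated libraries, and the median of all genes tested was 0.20 higher in tumor-associated MLECs on the log2 scale.

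The sorted identity was checked on marker lists. All 8 lymphatic markers were above 0 in all 9 libraries, and Ptprc, which encodes the leukocyte marker CD45, was listed at 0 in all of them. The summed FPKM of the lymphatic markers lay at 10345 to 16640 (control), 939 to 2938 (GL261) and 2117 to 6698 (B16). Ccl21c alone had 7384 to 13803 FPKM in control and made up most of the control sums. All 7 lymphatic markers that were tested had a negative difference in tumor-associated MLECs. Of these 4 were called, where 1.02% of all genes tested were called lower. Lyve1 was not called (-0.36, limma's adjusted p = 0.629). The 12 blood endothelial markers summed to 2764 to 3467 (control), 5581 to 6572 (GL261) and 6116 to 9040 (B16). In tumor-associated MLECs 10 had a positive difference and 7 were called higher, where 2.9% of all genes tested were. Cldn5 and Tie1 had negative differences (-0.63 and -0.50), and Cldn5 was called lower in GL261 MLECs (-1.01, adjusted p = 0.0215 from limma). In Control 1 the 5 smooth muscle markers summed to 1203 FPKM, led by Acta2 and Tagln, against at most 6.34 in any other library. The 7 macrophage markers reached 537 in GL261 2 and at most 262 elsewhere. The 5 pericyte markers summed to between 15.4 and 203 and the 5 fibroblast markers to at most 47.5, both with the highest sum in a control library. Single genes made up most of these control sums, Kcnj8 (59.9 to 195 FPKM) for pericytes and Dcn (15.7 to 44.9 FPKM) for fibroblasts. The pericyte marker Abcc9 went the other way from Kcnj8, with differences of 1.77 and -1.23 in tumor-associated MLECs, neither called. The 4 adipocyte markers were listed at 0 in all libraries, and the 5 melanocyte markers summed to at most 4.07. The 5 glial markers summed to at most 37.0, with the highest sums in B16 libraries. There S100b alone made up nearly the whole sum, with 37.0, 36.5 and 25.3 FPKM in B16 1, 2 and 3. It had at most 3.00 FPKM in any other library. S100b was called higher in B16 MLECs (4.80, adjusted p = 0.0135 from limma), where 1.61% of all genes tested were. The source of its RNA was not tested.

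The eNOS gene and its binding partner rose in tumor-associated MLECs, while none of the 5 caveola coat genes passed the test. Of the 7 members, 2 were called higher (Nos3 and Nostrin) and 0 lower in tumor-associated against control MLECs, where 3.93% of all genes tested were called, 2.9% higher and 1.02% lower. All 5 coat genes had a negative difference, with a median of -0.98 against 0.20 over all genes tested. In 4 members the 6 tumor-associated libraries did not overlap with the 3 control libraries, Nos3 and Nostrin above and Cav1 and Sdpr below, and 10.5% of all genes tested showed no overlap, 6.08% above and 4.44% below. In RNA from pooled cells, more cells of a type and more RNA per cell cannot be told apart. The plot of levels by library shows each member in each pool.

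**Figure D1:**
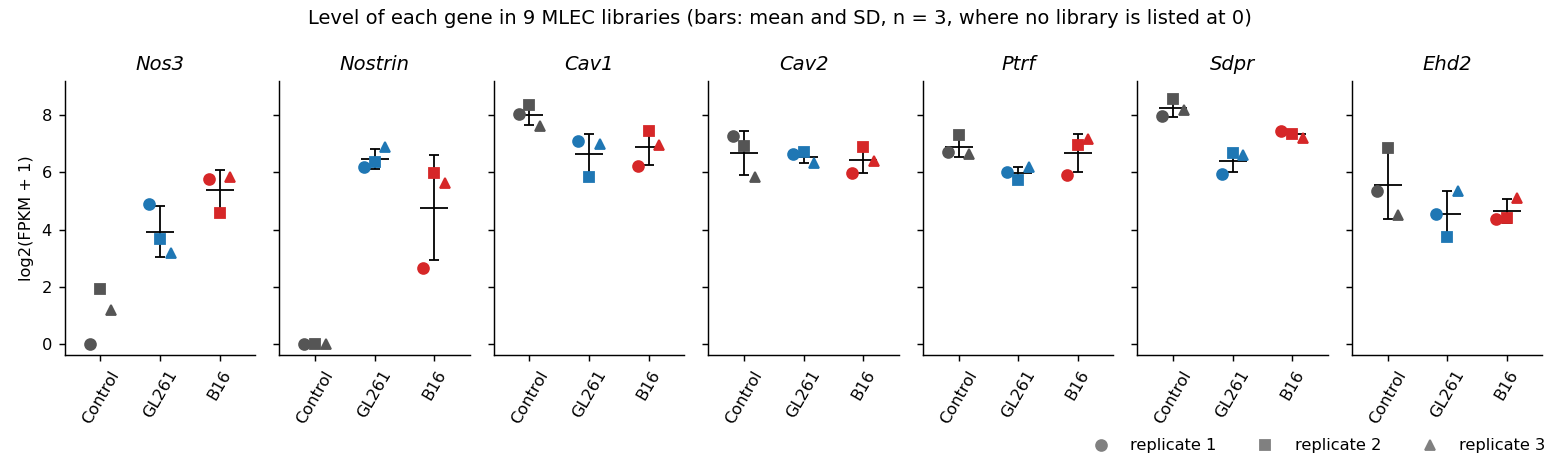
Level of the 7 genes as log2(FPKM + 1) in each of the 9 libraries, with 1 panel per gene, colors for the groups and marker shapes for the replicates. Black bars give the mean and SD of 3 libraries, and no bar is drawn where a library is listed at 0. Nos3 and Nostrin lie lowest in control MLECs, and Cav1 and Sdpr lie highest there.

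Nos3 lies on chromosome 5 of mm9 from 23870628 to 23890292 on the plus strand. It had 0, 2.80 and 1.27 FPKM in Control 1, 2 and 3. In GL261 1, 2 and 3 it had 29.0, 11.7 and 8.10 FPKM, and in B16 1, 2 and 3 it had 53.0, 23.1 and 56.0 FPKM. The lowest tumor-associated library was thus above the highest control library, with means of 16.3 ± 11.2 FPKM in GL261 and 44.0 ± 18.2 FPKM in B16 MLECs (SD, n = 3). The difference of tumor-associated from control MLECs was 3.62 on the log2 scale (standard error 0.76, 95% interval 1.97 to 5.27, adjusted p = 0.0186 from limma, exact permutation p = 0.0119). Leaving out Control 1 gave 3.10 with limma's adjusted p at 0.0664, and leaving out B16 3 gave 3.39 at 0.0518, so that either library decided the call. In each of these cases 1 member was called, Nostrin.

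The control values of Nos3 rested on few fragments. About 21.0 fragments stood behind the value of Control 2 and about 6.00 behind that of Control 3, against 142 to 1005 in the tumor-associated libraries. The limit that a count of 0 allows, taken as 3 fragments, was 0.466 FPKM in Control 1. B16 1 had a depth close to that of Control 2 (2.06 against 1.93) and held about 424 fragments of Nos3. These fragments came from cDNA amplified before sequencing, so the numbers cover counting error only. On the opposite strand Nos3 shares 294 bases with Atg9b, which had at most 2.96 FPKM in any library, and it overlaps with the transcript Gm15587, for which no value was used here. The library kit is not described as keeping strand, so reads from overlapping genes cannot be told apart.

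Nostrin, on chromosome 2 from 68973857 to 69027387 on the plus strand, was listed at 0 in all 3 control libraries. It had 72.5, 81.2 and 117 FPKM in GL261 1, 2 and 3, and 5.29, 62.6 and 48.9 FPKM in B16 1, 2 and 3. All tumor-associated libraries were therefore above control, with B16 1 far below the others and means of 90.1 ± 23.3 FPKM in GL261 and 38.9 ± 29.9 FPKM in B16 MLECs (SD, n = 3). The limit of 3 fragments was 1.16, 0.993 and 1.56 FPKM in the control libraries. In B16 1, at nearly the control depth, about 17.0 fragments were present. The difference was 5.62 on the log2 scale (standard error 0.83, 95% interval 3.82 to 7.42, adjusted p = 0.00198 from limma, exact permutation p = 0.0119), and it stayed between 5.37 and 6.21 with any 1 library left out, with limma's adjusted p at 0.00873 or below.

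**Figure D2:**
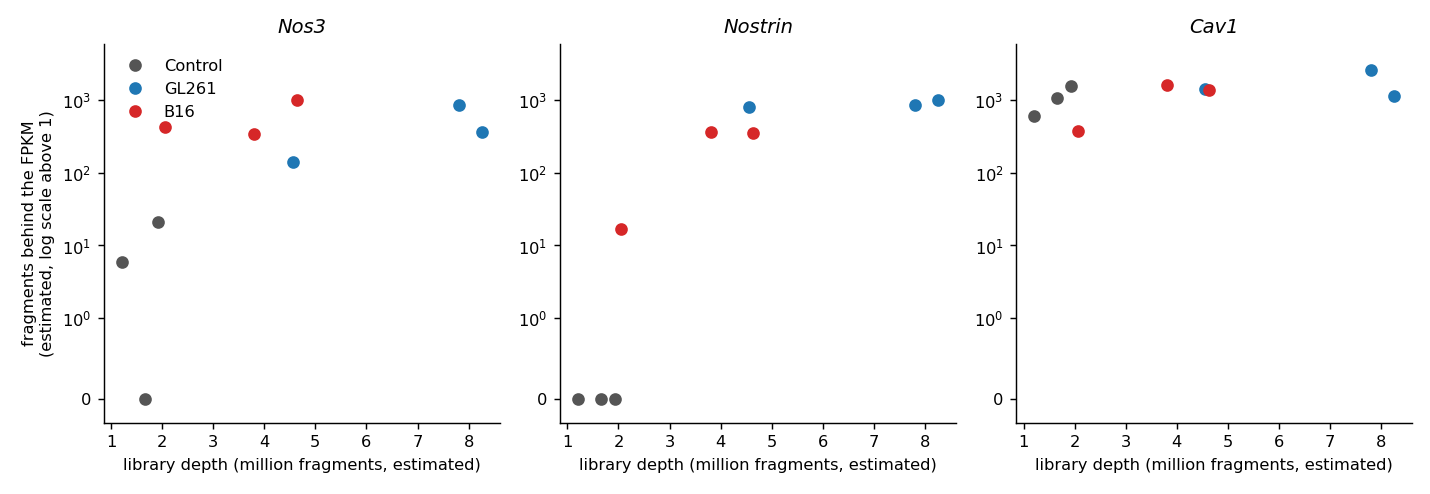
Estimated fragments behind the FPKM of Nos3, Nostrin and Cav1 (vertical axis, log scale above 1) against the estimated depth of the library (horizontal axis, 1000000 fragments), 1 point per library. B16 1, the red point at 2.06, lies close to the control libraries in depth and holds about 424 fragments of Nos3 and 17.0 of Nostrin.

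When depth entered the model as a covariate, neither gene was called. With the log2 of the aligned reads that the study lists, the difference of Nos3 was 4.59 (adjusted p = 0.227 from limma) and that of Nostrin 3.22 (limma's adjusted p = 0.334). With the number of genes above 0 FPKM in a library, they were 3.58 and 4.11 (limma, adjusted p of 0.324 and 0.246). These covariates left 9 and 13 of all genes called, in place of 391, and depth and tumor status cannot be told apart by design.

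Neither caveolin was called. Cav1 occupies positions 17256335 to 17291452 of chromosome 6. Its control libraries had 260, 326 and 199 FPKM. It had 137, 56.1 and 127 FPKM in the GL261 libraries and 74.6, 172 and 122 FPKM in the B16 libraries. The highest tumor-associated library, B16 2, was just below the lowest control library, Control 3. Means were 261.5 ± 63.7 in control, 106.8 ± 44.2 in GL261 and 123.1 ± 48.8 FPKM in B16 MLECs (SD, n = 3). The difference was -1.25 on the log2 scale (standard error 0.38, 95% interval -2.07 to -0.42, adjusted p = 0.0941 from limma, exact permutation p = 0.0238), which is not past the threshold. It was called after quantile normalization (limma's adjusted p = 0.0496) and in no other of 21 alternatives.

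Cav2 lies upstream of Cav1 on the same strand, from 17231185 to 17239115, and its end is 17220 bases from the start of Cav1. It had 154, 122 and 55.8 FPKM in control, 99.5, 103 and 78.6 in GL261 and 61.9, 119 and 84 in B16 libraries. The control libraries spanned all tumor-associated ones, around a mean of 110.6 ± 50.2 FPKM against 93.7 ± 13.2 in GL261 and 88.2 ± 28.6 in B16 MLECs (SD, n = 3). The difference was -0.19 (standard error 0.39, 95% interval -1.02 to 0.65, limma's adjusted p = 0.841), and it turned to 0.11 without Control 1. An antisense transcript, Gm15581, covers both genes in the annotation, and no value of it was used here.

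Sdpr had the highest mean level of the 5 coat members in control MLECs, though Cav1 was above it in Control 1. It lies on chromosome 1 from 51345970 to 51359803 and had 252, 380 and 291 FPKM in control, 60.7, 101 and 96.7 FPKM in GL261 and 174, 163 and 147 FPKM in B16 libraries. The 3 groups did not overlap with one another, control being highest and GL261 lowest, at means of 307.6 ± 65.6, 161.3 ± 13.7 (B16) and 86.0 ± 22 FPKM (SD, n = 3). Tumor-associated MLECs differed from control by -1.37 (standard error 0.37, 95% interval -2.17 to -0.58, adjusted p = 0.0557 from limma, exact permutation p = 0.0238). That p was under 0.05 in 6 of 21 alternatives, among them both other scalings between libraries (0.0443 and 0.0321) and the fit without B16 1 (0.0419). It reached 0.150 with 1 library left out (Control 2), and the difference shrank to -0.53 with aligned reads (0.787) and -0.81 with genes detected (0.643) as a covariate.

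Ptrf, which caveolae need to form, lies on chromosome 11 from 100818047 to 100832201. It had 103, 156 and 100 FPKM in control, 63.2, 51.7 and 71.5 in GL261 and 59.0, 124 and 143 in B16 libraries. Its GL261 libraries were below all controls and its B16 libraries were spread across them, with means of 119.8 ± 31.6 in control, 62.1 ± 9.97 in GL261 and 108.7 ± 44.1 FPKM in B16 MLECs (SD, n = 3). The difference was -0.56 (standard error 0.40, 95% interval -1.44 to 0.31, adjusted p = 0.471 from limma).

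Ehd2 occupies positions 16532326 to 16552916 of chromosome 7. Its FPKM were 39.5, 115 and 21.9 in control, 22.5, 12.5 and 40.2 in GL261 and 19.7, 20.3 and 33.7 in B16 libraries. The groups overlapped and Control 2 stood far above the other controls, whose group mean was 58.9 ± 49.6 FPKM against 25.1 ± 14.1 in GL261 and 24.6 ± 7.91 in B16 MLECs (SD, n = 3). The difference of -0.98 (standard error 0.57, 95% interval -2.22 to 0.26, adjusted p = 0.381 from limma) became -0.33 without Control 2.

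**Figure D3:**
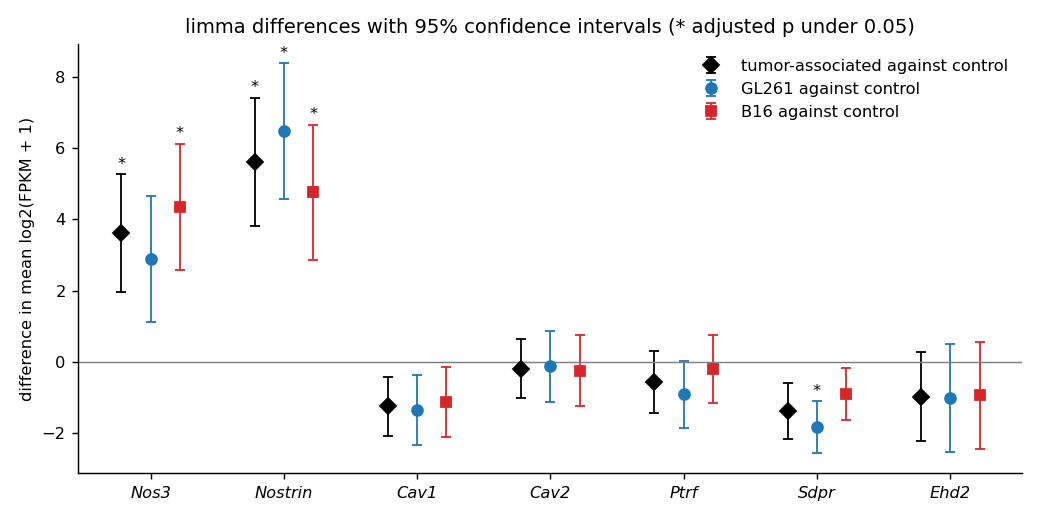
Difference in mean log2(FPKM + 1) for each member, with 95% confidence intervals from limma, for tumor-associated, GL261 and B16 MLECs against control. Asterisks mark an adjusted p under 0.05. Nos3 and Nostrin lie above 0 in all 3 comparisons, Cav1 and Sdpr below 0, and the intervals of Cav2, Ptrf and Ehd2 include 0.

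For the 4 members below, the 250 bases that precede the transcription start are shown because they set the gene listed at 0 in control (Nostrin) beside both coat genes that did not overlap (Cav1 and Sdpr) and the neighbor of Cav1 that did overlap (Cav2). RefSeq promoters of assembly GRCm38.p6 had an entry for 6 of the 7 members, all except Nos3, with Ptrf as Cavin1 and Sdpr as Cavin2. Each stretch was placed on mm9 by its only exact match on the chromosome, all on the plus strand, and ends 1 base before the start of the gene in GENCODE M1. Capitals mark matches on either strand to any of 6 motifs, none of which overlapped in these windows. The GC box was searched with the letters GGGCGG. The box named for its letters was searched as CACCC, and the core bound by ETS factors as CCGGAA. The site of GATA factors was searched as AGATAA and that of AP-1 as TGANTCA, where N stands for any base. The TATA box was searched with the letters TATAAA.
Nostrin, chr2:68973607-68973856: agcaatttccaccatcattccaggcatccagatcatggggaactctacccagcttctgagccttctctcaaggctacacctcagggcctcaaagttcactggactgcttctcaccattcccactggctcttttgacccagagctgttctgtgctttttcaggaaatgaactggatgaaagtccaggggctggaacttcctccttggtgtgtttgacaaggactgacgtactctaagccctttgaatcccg
Cav1, chr6:17256085-17256334: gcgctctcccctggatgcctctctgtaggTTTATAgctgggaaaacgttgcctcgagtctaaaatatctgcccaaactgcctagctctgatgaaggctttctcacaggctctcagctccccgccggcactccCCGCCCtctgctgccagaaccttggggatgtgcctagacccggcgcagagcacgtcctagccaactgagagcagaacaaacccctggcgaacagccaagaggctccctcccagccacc
Cav2, chr6:17230935-17231184: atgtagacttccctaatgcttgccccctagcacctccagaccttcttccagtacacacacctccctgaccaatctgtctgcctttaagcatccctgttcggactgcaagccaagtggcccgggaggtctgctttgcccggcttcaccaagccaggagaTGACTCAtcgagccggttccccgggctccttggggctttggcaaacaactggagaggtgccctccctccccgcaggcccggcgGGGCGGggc
Sdpr, chr1:51345720-51345969: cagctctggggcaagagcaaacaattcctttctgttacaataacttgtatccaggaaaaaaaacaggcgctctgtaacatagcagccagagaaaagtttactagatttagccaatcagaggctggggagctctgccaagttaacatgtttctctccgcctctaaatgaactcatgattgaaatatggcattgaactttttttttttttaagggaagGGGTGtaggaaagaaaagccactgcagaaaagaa

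The Nostrin window held 0 of the 6 motifs and was 50.4% G and C. Cav1 has a second RefSeq entry, chr6:17257390-17257639, which lies inside the gene as annotated, holds 0 of the 6 motifs and is not shown. The Cav1 window shown held 1 match to the GC box and 1 to the TATA box, both as letters of the minus strand. The latter lay near the end of the window far from the start, and whether it acts as a TATA box was not tested. The Cav2 window held 1 GC box and 1 AP-1 site, and the Sdpr window 1 CACCC box. Among 32851 RefSeq promoters of the same length, 32.7% held the GC box, 52.0% the CACCC box, 12% the ETS core, 9.99% the GATA site, 6.75% the AP-1 site and 12.4% the TATA box. The Cav1 and Cav2 windows were 59.6% and 62.0% G and C, the Sdpr window 40.4%, and the mean of all promoters was 53.2%.

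Each tumor was then compared with the shared control libraries. In GL261 MLECs 1 member was called higher, Nostrin, and 1 lower, Sdpr, where 3.49% of all genes tested were called, 2.58% higher and 0.904% lower. The GL261 libraries lay above all controls in 2 members and below them in 3 (Cav1, Ptrf and Sdpr), against 22.5% of all genes without overlap, 13.7% above and 8.84% below. In B16 MLECs 2 members were called higher, Nos3 and Nostrin, and 0 lower, where 2.11% of all genes were called, 1.61% higher and 0.502% lower. The B16 libraries lay above all controls in 2 members and below them in 2 (Cav1 and Sdpr), against 17.2% of all genes, 10.2% above and 7% below. Both comparisons use the same 3 controls, so that their values are given side by side and not as separate evidence.

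Nos3 differed from control by 2.88 in GL261 MLECs (limma, adjusted p = 0.0820), and its B16 difference was 4.36 (limma, adjusted p = 0.0183). The B16 call was lost without B16 1 (adjusted p = 0.0805 from limma), without B16 3 (0.106) and in a fit of only control and B16 libraries (0.0915). For Nostrin the GL261 difference was 6.48 (limma, adjusted p = 0.00246) and the B16 difference 4.76 (limma, adjusted p = 0.0164). The latter was lost without B16 2 (0.0886), without B16 3 (0.102) and in the fit of only those 2 groups (0.134).

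Sdpr differed by -1.84 in GL261 MLECs (standard error 0.33, adjusted p = 0.0133 from limma), while its B16 difference of -0.91 did not pass (limma, adjusted p = 0.223). Its GL261 call was lost without GL261 1 (-1.61, adjusted p = 0.0623 from limma). Cav1 differed by -1.36 and -1.13, at limma's adjusted p of 0.137 and 0.263. Ptrf differed by -0.92 in GL261 and -0.21 in B16 MLECs (limma, adjusted p of 0.314 and 0.868), and Ehd2 by -1.01 and -0.94 (0.498 and 0.572). Cav2 had the smallest difference of the coat genes in GL261 MLECs, at -0.13 (limma's adjusted p = 0.922).

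Between GL261 and B16 MLECs 0 of the 7 members were called by limma, and 0.01% of all genes were, with 548 genes at an unadjusted p under 0.05. Groups without overlap were found in 2 members, Nostrin (GL261 above) and Sdpr (GL261 below), against 13.8% of all genes, 7.13% above and 6.66% below. The unadjusted p was under 0.05 for 1 member, Sdpr, which was lower in GL261 by -0.93 (95% interval -1.66 to -0.20, unadjusted p = 0.0173 and adjusted p = 0.748 from limma, exact permutation p = 0.1). In Nostrin the GL261 libraries were all above the B16 libraries, by 1.72 (95% interval -0.18 to 3.62), which became 0.66 without B16 1 and 0.46 with aligned reads as a covariate. Nos3 was lower in GL261 by -1.47 (95% interval -3.24 to 0.30) and its groups overlapped. The intervals leave room for differences between the tumors of over 3 on the log2 scale in both genes.

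The order of the members by mean log2 level changed between groups. In control MLECs it was Sdpr, Cav1, Ptrf, Cav2, Ehd2, Nos3 and Nostrin, at 8.25, 8.01, 6.89, 6.68, 5.57, 1.04 and 0. Sdpr and Cav1 overlapped over libraries, as did Ptrf, Cav2 and Ehd2, while Ehd2 was above Nos3 in each control library. In GL261 MLECs Cav1, Cav2, Nostrin and Sdpr lay between 6.41 and 6.65 with overlapping libraries, followed by Ptrf at 5.97, Ehd2 at 4.56 and Nos3 at 3.92. In B16 MLECs the order was Sdpr (7.34), Cav1 (6.87), Ptrf (6.68), Cav2 (6.43), Nos3 (5.39), Nostrin (4.76) and Ehd2 (4.63), and the last 3 overlapped. Among the 9955 genes tested, Cav1 stood at percentile 95.1 to 96.7 in control and 84.6 to 93.7 in tumor-associated libraries. Nos3 stood at percentile 15.8 to 32.7 in control and 49.6 to 83.6 in tumor-associated libraries.

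Ratios of 2 genes within a library do not depend on how libraries are scaled, and the pairs were chosen after the levels had been seen. The ratio of Cav1 to Cav2 FPKM was 1.69, 2.68 and 3.56 in control, 1.38, 0.544 and 1.62 in GL261 and 1.20, 1.45 and 1.46 in B16 libraries, so that each control lay above each tumor-associated library. The ratio of Cav1 to Ptrf was 1.99 to 2.52 in control and 0.856 to 1.39 in B16 libraries, and GL261 1 reached 2.17. The ratio of Sdpr to Ptrf was 2.43 to 2.91 in control and 0.960 to 1.95 in GL261 libraries. It was 1.31 and 1.03 in B16 2 and 3, whereas B16 1 had 2.95, above all controls. For Cav1 to Prkcdbp, the gene of the third cavin, control libraries (0.162 to 0.438) and tumor-associated libraries (0.0716 to 0.272) overlapped.

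**Figure D4:**
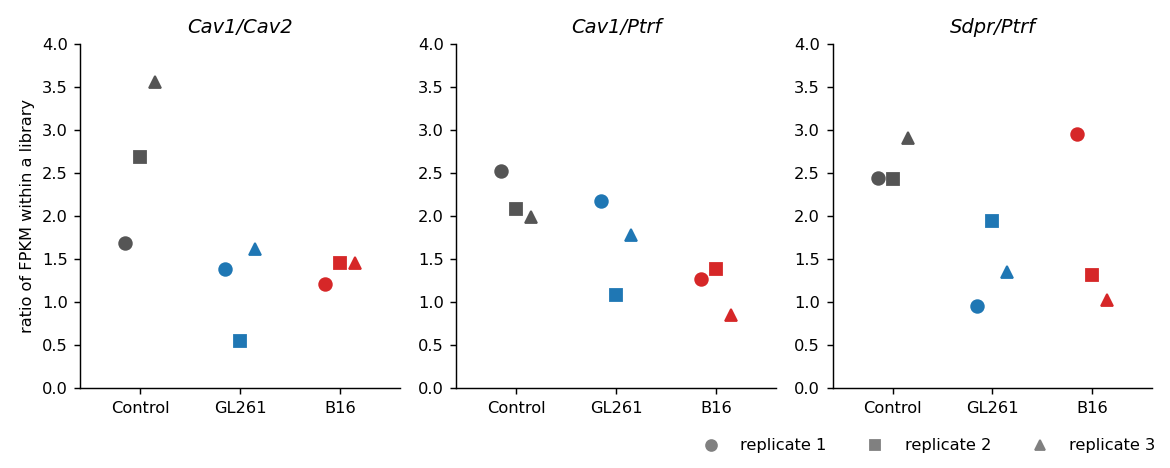
Ratios of FPKM within each library for 3 pairs of coat genes, 1 point per library, with linear axes from 0. Cav1 relative to Cav2 is highest in the 3 control libraries, and Sdpr relative to Ptrf is at the control level in B16 1.

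Genes that regulate eNOS or supply nitric oxide synthesis were taken from a list of 30, of which 27 were tested. In tumor-associated against control MLECs 2 were called higher, Ass1 and Ddah1, and 0 lower, where 2.9% of all genes tested were called higher and 1.02% lower. The median difference was 0.40 against 0.20 over all genes tested. Ass1 encodes argininosuccinate synthase, which helps to rebuild arginine from the citrulline that eNOS releases, and it is in the study's own list of upregulated genes. It was listed at 0 in Control 1 and 2, had 0.592 FPKM in Control 3, 125, 95.2 and 21.5 FPKM in GL261 and 146, 116 and 221 FPKM in B16 libraries. It differed by 6.43 (SE 0.67; limma, adjusted p = 1.70e-04), with each tumor-associated library above each control. Ddah1 breaks down asymmetric dimethylarginine, an inhibitor of nitric oxide synthases. It was listed at 0 in all controls, against 9.18 to 25.4 FPKM in tumor-associated MLECs (difference 4.26, standard error 0.63, adjusted p = 0.00198 from limma). Both genes were called in GL261 and in B16 MLECs, and neither was called with aligned reads as a covariate (limma, adjusted p of 0.0571 and 0.164).

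Other members of that list are named here after their values had been seen. The synthesis enzymes of tetrahydrobiopterin, a cofactor of eNOS, had differences of 3.38 for Gch1, 2.35 for Pts and 4.01 for Spr, with adjusted p-values in limma of 0.0562, 0.122 and 0.0624. Spr is also in the study's list of upregulated genes. Prmt1 was closer to the threshold than these 3, with a difference of 2.65 (limma's adjusted p = 0.0509). It was listed at 0 in all controls, against 2.14 to 10.8 FPKM in tumor-associated libraries. The Hsp90 genes and Akt1, whose products activate eNOS, were not called, with differences of -0.81 for Akt1, -0.41 for Hsp90aa1 and -0.094 for Hsp90ab1. Hsp90ab1 had 405 to 744 FPKM over all libraries. Of the other synthases, Nos1 reached at most 0.860 FPKM. Nos2 had 2.90 and 6.36 FPKM in Control 1 and 2 and at most 0.381 elsewhere.

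Of 10 listed targets of nitric oxide, 2 passed the filter, Vasp and Adh5, and 0 were called, at an unadjusted p under 0.05 for 1 of them. Vasp, a substrate of the kinase that cyclic GMP activates, had control values of 2.72, 48.0 and 5.76 FPKM, and tumor-associated libraries ranged from 29.3 to 73.2 (difference 2.26, adjusted p = 0.101 from limma). It was called only without Control 2 (limma's adjusted p = 0.00543). The subunits of the nitric oxide receptor, soluble guanylate cyclase, did not pass the filter and are named after their values had been seen. Gucy1a3 had 12.4, 7.04 and 0 FPKM and Gucy1b3 1.21, 12.6 and 0.274 FPKM in the control libraries, and both were listed at 0 in all 6 tumor-associated libraries. Adh5, which removes S-nitrosoglutathione, differed by -0.22 (limma's adjusted p = 0.793), with a sign that turned to 0.11 with aligned reads as a covariate.

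Of 15 other genes of caveolae, membrane rafts and their relatives, 10 were tested, and 3 rose (Ehd3, Ehd4 and Plvap) while 1 fell (Flot2). The median difference was 0.18, against 0.20 over all genes tested, of which 2.9% were called higher and 1.02% lower. Ehd4, a relative of Ehd2, had 24.4, 17.5 and 13.3 FPKM in control, 95.3, 77.5 and 110 FPKM in GL261 and 44.1, 65.6 and 64.5 FPKM in B16 libraries. It differed by 1.97 (SE 0.42; limma, adjusted p = 0.0197), lost without Control 3 (0.0579). Ehd3 had control values of 0, 2.12 and 0.241 FPKM, below the tumor-associated range of 5.01 to 40.3 (difference 3.23, adjusted p = 0.0449 from limma). Its call was lost in 16 of 20 alternatives, and leaving out any 1 library other than Control 2 gave adjusted p of 0.0516 to 0.120 in limma.

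Plvap, which forms the diaphragm of caveolae and is itself one of the blood endothelial markers, ranged from 686 to 1390 FPKM in control libraries, all below the tumor-associated range of 1462 to 4037. Its difference of 1.29 (adjusted p = 0.0338 from limma) was lost in 13 of 21 alternatives, at 0.0507 to 0.138 without Control 1, Control 3, GL261 2, B16 1, B16 2 or B16 3. Flot2 encodes flotillin-2, a raft protein outside caveolae, and is in the study's list of downregulated genes. Control libraries ranged from 38.9 to 59.7 FPKM, above the tumor-associated range of 0 to 20.03 (difference -3.23, adjusted p = 0.0494 from limma). That call was lost in 15 of 20 alternatives, at 0.0688 to 0.133 without any 1 library other than GL261 3 or B16 1. Prkcdbp, which encodes the third cavin and is named after its values had been seen, had the highest FPKM of the coat proteins, with a control range of 595 to 1223 and a tumor-associated range of 633 to 1095 (difference -0.02, 95% interval -0.57 to 0.53). Cav3 and Murc, the muscle forms of caveolin and cavin, were listed at 0 in all 9 libraries.

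**Figure D5:**
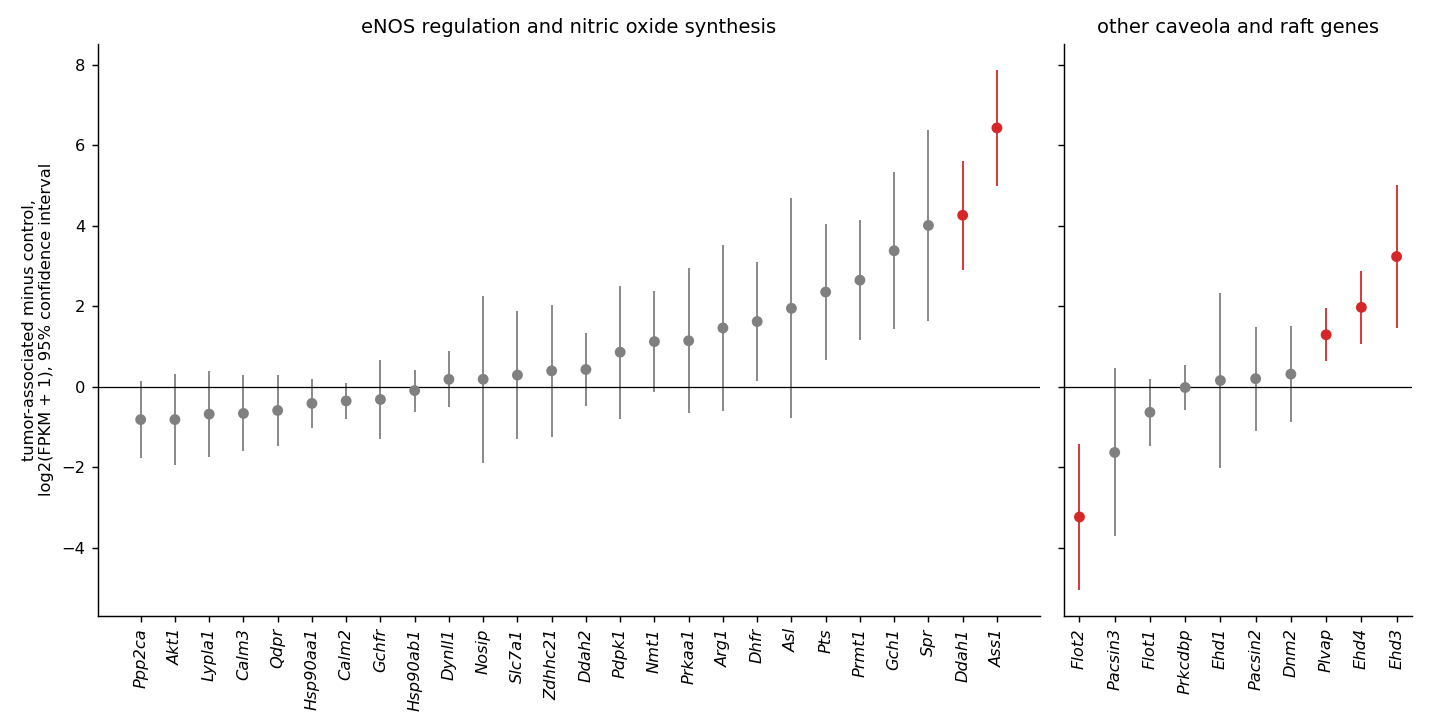
Difference of tumor-associated from control MLECs in log2(FPKM + 1), with 95% confidence intervals from limma, for tested genes of eNOS regulation and nitric oxide synthesis (left) and 10 other caveola and raft genes (right), in order of the difference. Red marks an adjusted p under 0.05. Ass1 and Ddah1 are called on the left, and Ehd3, Ehd4, Plvap and Flot2 on the right.

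Receptors and factors that act upstream of eNOS formed a list of 18, with 15 tested, 3 called higher (Flt1, Ednrb and Insr) and 1 lower (Flt4). The median difference was 0.67, against 0.20 over all genes tested, of which 2.9% were called higher and 1.02% lower. Flt4, which encodes the VEGF-C receptor VEGFR3 and is itself one of the lymphatic markers, differed by -1.80 (adjusted p = 0.0160 from limma), lost without Control 3 (0.0522), and by -0.86 with aligned reads as a covariate (0.611). Vegfc, also in the study's list of upregulated genes, was listed at 0 in all controls and in B16 1, with 15.5 to 75.9 FPKM in the remaining 5 libraries (difference 4.33, adjusted p = 0.0584 from limma). Of 20 alternatives that p was under 0.05 in 1, without B16 1 (0.00212). It reached 0.125 with another library left out (Control 1), and with aligned reads as a covariate the difference was 1.37 (0.830). Ednrb, the endothelin receptor that is coupled to eNOS in endothelium, rose by 4.07 (standard error 0.59, adjusted p = 0.00189 from limma), from 2.89 to 29.0 FPKM in control to 132 to 463 FPKM. Flt1, a receptor of VEGF-A and one of the blood endothelial markers, differed by 6.18 (limma's adjusted p = 3.01e-05) and was called in all 21 alternatives. Insr differed by 3.08 (adjusted p = 0.0409 from limma), at 0.0516 to 0.123 without any 1 library other than Control 2. The flow-regulated factor Klf2, an activator of Nos3 transcription, and Kdr, which encodes VEGFR2, were not called, at differences of 0.63 and -0.34 (limma, adjusted p of 0.430 and 0.755). Without Control 1 the difference of Klf2 was 0.097, and that of Kdr ran from -0.57 (without Control 1) to -0.13 (without Control 2) with 1 library left out.

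Against control, 10 of the 12 blood endothelial markers, with Plvap among them, had higher means in tumor-associated libraries. Nos3, Nostrin and Ass1 were also higher there. Cldn5, Tie1 and the lymphatic markers had lower means there. The part of these markers in the results was not tested. In B16 1, with Nostrin at 5.29 FPKM, the blood endothelial sum was 6116. Of the tumor-associated libraries B16 1 had the lowest Cd34, Emcn, Flt1 and Esam (153, 435, 49.0 and 335 FPKM), and the lowest Sox17 and Nrp1. It had the highest Cldn5 (1679 FPKM), and its Plvap, Eng, Tie1, Podxl and Ptprb were not the lowest. Its lymphatic sum of 6698 FPKM was the highest of the tumor-associated libraries. For the smooth muscle genes of Control 1, Cav1 without that library differed by -1.23 (limma's adjusted p = 0.181), and Sdpr by -1.51 (limma's adjusted p = 0.0869). Without both Control 1 and GL261 2, a choice made after seeing the data, Nostrin was the 1 member called in tumor-associated against control MLECs, and Nos3 differed by 3.30 (adjusted p = 0.0793 from limma).

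The genes whose levels ran most like those of 2 members were ranked by Pearson's r of log2(FPKM + 1) over the 9 libraries, as a description. For Nos3 these included Ackr3 (0.97), Cx3cl1 (0.95), Dhcr7 (0.95) and Inhbb (0.95). Ackr3, a scavenger receptor for chemokines and adrenomedullin, ranged from 0.458 to 8.44 FPKM in control and from 33.7 to 214 in tumor-bearing mice. Cx3cl1, the membrane-bound chemokine fractalkine, had at most 0.283 FPKM in control and 4.49 to 34.8 in tumor-associated libraries. For Cav1 they were Jade1 (0.95), Mrfap1 (0.94), Mfap1a (0.93), Olfm1 (0.93) and Srek1ip1 (0.92). The libraries fall into groups and share their depth order, so that a high r can come from the groups alone.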

How the data were processed

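MLECs were sorted from dorsal meninges, lysed in pools, and amplified by Smart-seq2. Per the labels and methods, the authors trimmed reads, aligned them to mm9 with TopHat2 2.0.12 and computed 1 value per gene and library with Cufflinks 2.2.1, and they deposited these as FPKM. No scaling between libraries was added for the tests, apart from the alternatives. The gene annotation is not given in the sources used here. Read counts were not used, so no count model was fitted, and fragments were estimated from the FPKM steps of 1 fragment, over genes with a single transcript of at least 1500 bases in GENCODE M1, whose coordinates are those of mm9.

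Differences of log2(FPKM + 1) were tested with limma 3.58.1 in R 4.3.3 (lmFit, eBayes with a trend), with Benjamini-Hochberg adjustment over the 9955 genes with at least 1 FPKM in at least 3 libraries. GL261 and B16 were joined for tumor-associated against control, and single tumors were compared in a model of 3 groups. limma takes the place of the study's ROC power, which gives no p. Permutation tests used scipy 1.17.1 and figures matplotlib 3.10.9. limma was tested on simulated data.

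Genes named are the 7 members, list genes past the threshold without overlap (otherwise the 2 with the largest difference per list), Flt4, Kdr, Vegfc and Klf2, and the 5 genes most like Nos3 and Cav1. Some items that the rule or lists hold are not reported here. Others are marked as named after their values were seen. The members and lists were chosen with earlier results of these data known. Alternatives were pseudocount, scaling, filters, variance model, replicate block, depth covariates, samples in the fit and leaving out each library.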

Additional observations from a re-analysis of the deposited data

Results flagged for a closer look

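Nostrin in B16 1 stood apart from the other tumor-associated libraries. On the log2(FPKM + 1) scale its gap to the next library, divided by the range of the 6 tumor-associated libraries, was 0.707, above the critical value of 0.625. The library had 5.29 FPKM against 48.9 to 117 in the others, and it also had the lowest depth of the tumor-associated libraries. Both ends were checked for each of the 7 members, and chance alone gives about 1 such gap in 20 groups. Without B16 1 the difference of Nostrin from control was 6.21 in tumor-associated and 5.81 in B16 MLECs. Its lymphatic marker sum, 6698 FPKM, was the highest of the tumor-associated libraries. A part of depth or of cell content in the Nostrin value was not tested.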

How the results depend on the processing

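Each control library held fewer fragments than each tumor-associated one, and p-values rest on 3 pools per group. Each result was recomputed under up to 21 alternatives, 1 of them chosen after seeing the data (without Control 1 and GL261 2). The cause of a lost call was not tested.

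Members called were 2 in tumor-associated, GL261 and B16 MLECs, each against control. With aligned reads or with genes detected as a covariate, 0 were called in all 3. With FPKM above 0 required in all libraries, which removes Nos3 and Nostrin, 1, 1 and 0 were called. Quantile normalization gave 4 in tumor-associated MLECs, no variance trend gave 1 in GL261, and a pseudocount of 0.1 gave 1 and a fit of only 2 groups 0 in B16 MLECs. Leaving out 1 library gave 1 to 3, 1 to 2 and 0 to 2, and the alternative chosen after seeing the data gave 1, 1 and 0. Between GL261 and B16 MLECs 0 were called under all 21. Members without overlap numbered 4 to 5 under all alternatives run.

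Of the nitric oxide synthesis list, 2 were called, 0 with either covariate or with FPKM above 0 in all libraries, and 2 to 3 with 1 library left out. Of the other caveola list, 4 were called. That became 1 after rescaling each library to 1000000, 2 after quantile normalization, 1 with any FPKM above 0 as the filter, 2 with FPKM above 0 in all libraries, 2 without a variance trend, 0 with either covariate, 0 to 3 with 1 library left out and 0 without Control 1 and GL261 2.

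Signs turned for differences that had not been called. With 1 library left out, Cav1 ranged from -0.54 to 0.18 and Ehd2 from -0.48 to 0.33 in GL261 against B16, and both reached 0.18 and 0.33 without Control 1 and GL261 2. Cav2 ranged from -0.62 to 0.11 in tumor-associated, -0.55 to 0.17 in GL261 and -0.68 to 0.047 in B16 MLECs against control, and was 0.069, 0.10 and 0.047 without Control 1 and GL261 2. In GL261 against B16, Cav2 ranged from -0.10 to 0.36 and was -0.036 after rescaling and -0.61 with aligned reads as a covariate. Ptrf in B16 against control ranged from -0.45 to 0.18. Adh5 was 0.11 with aligned reads and 0.10 with genes detected as a covariate.

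Of all genes, 289 were called higher and 102 lower in tumor-associated MLECs. These were 210 and 116 after rescaling and 238 and 145 after quantile normalization, where the median of all genes was 0.05 and 0.03 in place of 0.20. Calls over all genes fell from 391 to 9 and 13 with aligned reads and genes detected as covariates, and to 254 with any FPKM above 0 and 212 with FPKM above 0 in all libraries.

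Replicate numbers are shared across groups. Deviations from the group mean correlated at -0.033 to 0.044 over 9 pairs of same-numbered libraries, against -0.030 to 0.052 over the 18 other pairs. No sign of pairing by number was seen. The deviations within a group of 3 cancel one another, so that such correlations cannot exclude a batch shared by number. With the replicate number as a block 303 genes were called and the members called stayed at 2 in each comparison with control.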
